A study of Mus musculus with 12 samples.

Results

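The genes described here encode the subunits of the ionotropic and metabotropic receptors for glutamate and GABA. They were taken by symbol: 35 subunits of the AMPA, NMDA, kainate, metabotropic glutamate, GABA-A and GABA-B receptors, each matched to 1 row among the 56980 gene rows of the count table. Of these, 32 had enough reads to be tested among 19152 tested genes: 4 of 4 AMPA, 6 of 7 NMDA, 5 of 5 kainate, 6 of 7 metabotropic glutamate, 9 of 10 GABA-A and 2 of 2 GABA-B subunits.

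The libraries are bulk RNA-seq of the hippocampus of 12 male mice, 3 in each of 4 groups, and each library carries its own mouse identifier in the labels. The groups were AppNL-G-F mice that also lacked Trem2 (genotype label "AppNL-G-F; Trem2 KO", Trem2-KO below) at 9 months, AppNL-G-F mice with no Trem2 knockout in their label (App-KI below) at 9 months, Trem2-KO mice at 3 months and App-KI mice at 3 months. Every mouse carried the AppNL-G-F allele, a knock-in of a humanised App gene with mutations of familial Alzheimer's disease that leads to amyloid plaques without App overexpression, so no group was free of it, and age and the course of amyloid deposition cannot be told apart. The study asked how glia respond to amyloid with and without TREM2, a microglial receptor, at the onset and the middle stage of the pathology, and the receptor subunits are read here from the same whole-tissue libraries.

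Glutamate opens AMPA, NMDA and kainate channels, which are tetramers of the Gria, Grin and Grik subunits and carry excitation, and it also acts on metabotropic receptors, the Grm genes, which signal through G proteins. GABA opens GABA-A channels, pentamers whose alpha subunit decides much of where the receptor sits and how it responds, and it activates GABA-B receptors, obligate pairs of Gabbr1 and Gabbr2 that signal through G proteins. In the hippocampus, receptors with the alpha5 subunit lie largely outside synapses on pyramidal cells, receptors with alpha4 and delta give a steady current in dentate granule cells, and receptors with alpha2 are found at synapses, including those on the axon initial segment of pyramidal cells.

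Library depth ran from 14627892 to 24594655 reads. Values are in CPM, read counts relative to library size, with library sizes scaled by edgeR's TMM method. Trem2 itself had 3.62, 3.83 and 3.77 CPM in Trem2-KO mice at 9 months, against 55.6, 52.6 and 49.8 CPM in App-KI mice of that age, and 1.85, 1.93 and 2.17 CPM in Trem2-KO mice at 3 months, against 10.4, 8.05 and 9.17 CPM in App-KI mice. The genotype labels and the Trem2 reads therefore match in all 12 libraries, while the part of the gene that was deleted is not given in the labels. All 6 neuronal, 5 dentate, 5 CA1 and 5 CA3 markers passed the filter in these libraries. Choroid plexus markers (6 genes) summed to 68.0 to 2974 CPM in Trem2-KO 9-month libraries, 43.3 to 1230.5 CPM in App-KI 9-month, 657 to 1245 CPM in Trem2-KO 3-month and 51.9 to 1653 CPM in App-KI 3-month libraries, with Trem2-KO 9-month replicate 3, App-KI 9-month replicate 2 and App-KI 3-month replicate 1 far below the others.

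Set per length, Gria1 and Gria2 of the AMPA receptors had the highest levels. Divided by the length of its principal transcript, Gria1 averaged 179 CPM per kilobase over the 12 libraries and Gria2, the subunit that makes AMPA channels nearly impermeable to calcium, averaged 123. Gabra5 followed with 103 and Gabbr1, the subunit that binds GABA in the GABA-B receptor, with 102 CPM per kilobase. Gabra5 and Gabbr1 were about level. Grin1, the obligatory NMDA subunit, stood at 58.9, Gabra4 at 48.6, Gabbr2 at 46.0 and Gria3 at 37.1 CPM per kilobase. Grik5, a high-affinity kainate subunit, led its class with 29.2, and Grm5, which couples to phospholipase C, led the metabotropic receptors with 24.9 CPM per kilobase. The order is of levels, not of differences between groups. With the length of all annotated exons in place of the principal transcript, Gabra5 stood before Gria2, and no subunit moved by more than 5 places. By that length Grm3 led the metabotropic receptors with 22.0 CPM per kilobase, before Grm5 with 19.6.

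**Figure D1:**
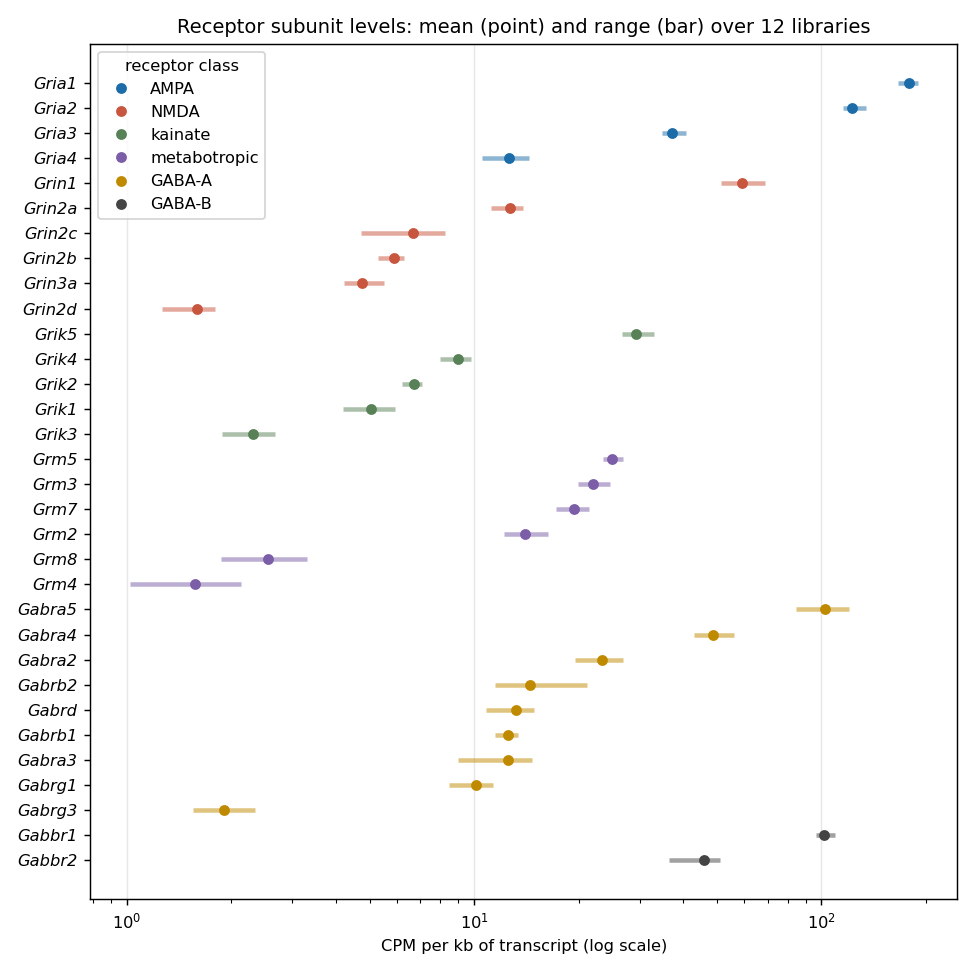
Level of each of the 32 tested receptor subunits by class, as CPM per kilobase of the principal transcript on a log axis; each point is the mean and each bar the range over the 12 libraries. Gria1 (179 CPM per kilobase over all libraries) and Gria2 (123) have the highest levels, and Grin2d (1.59) and Grm4 (1.57) the lowest.

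The level of a given subunit differed little between libraries. The 32 tested subunits had at least 96 counts in every library, and the ratio of the highest to the lowest of the 12 libraries ran from 1.14 for Gabbr1 to 2.09 for Grm4, with a median of 1.34. Gria2 had 1271, 1229 and 1257 CPM in Trem2-KO mice at 9 months, 1192, 1292 and 1240.1 CPM in App-KI mice at 9 months, 1393, 1261 and 1296 CPM in Trem2-KO mice at 3 months and 1327, 1207 and 1310.4 CPM in App-KI mice at 3 months. Grm5 had 212, 189 and 192 CPM, 190.4, 210.4 and 206 CPM, 216, 190.1 and 197 CPM and 215, 192 and 199.9 CPM in the same 4 groups. All 4 groups overlap for Gria2 and for Grm5. Gabrb2, a beta subunit of GABA-A receptors, came next after Grm4 in unevenness, with 45.8 to 84.5 CPM over the 12 libraries.

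Grin3b, Gabra6 and Grm6 failed the filter. Grin3b, an NMDA subunit known from motor neurons, had 35 reads in all and at most 0.375 CPM in any library. Gabra6, the alpha subunit of cerebellar granule cells, had 15 reads in all, with 8 of 12 libraries at 0 and at most 0.514 CPM. Grm6, the receptor of retinal bipolar cells, had 2 reads in all, with 10 of 12 libraries at 0. A count of 0 allows up to 3 counts, which is 0.122 to 0.205 CPM depending on the library, and covers counting error only. No group difference was detectable at this depth for these genes.

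Without Trem2, 3 alpha subunits of the GABA-A receptor and 1 metabotropic glutamate receptor changed when the genotypes were compared over both ages. Gabra5 and Gabra4, subunits of receptors that sit mostly outside synapses, rose in Trem2-KO hippocampi, and Gabra2 and Grm7 fell. Each change was small, between -0.23 and 0.18 on the log2 scale. The 4 of 32 called subunits (12.5%) compare with 4.14% of all tested genes, 1.60% higher and 2.54% lower, called by edgeR's quasi-likelihood test at an adjusted p under 0.05. The median log2 fold change over the 32 subunits was -0.026, beside 0.0052 over all tested genes. No AMPA, NMDA, kainate or GABA-B subunit was called. Nor was Gabrd, which encodes the delta subunit that pairs with alpha4. Its group means were 25.3 CPM in Trem2-KO mice and 23.8 CPM in App-KI mice at 9 months. At 3 months they were 25.6 CPM in Trem2-KO mice and 27.0 CPM in App-KI mice, the opposite direction.

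At each age alone the calls were fewer. At 9 months 1 of 32 subunits was called, Gabra2, which was lower, against 2.08% of all tested genes (0.684% higher and 1.39% lower). At 3 months edgeR called 0 of 32, against 0.590% of all tested genes (0.167% higher and 0.423% lower), and DESeq2 and limma-voom also called 0. These comparisons share no libraries. The log2 fold changes had the same sign at both ages for 22 of 32 subunits (68.8%), 7 higher and 15 lower in Trem2-KO mice, beside 61.7% of all tested genes. Standard errors of the log2 fold changes at one age ran from 0.046 to 0.25 at 9 months with a median of 0.072, which sets the size of difference that 3 libraries against 3 can show.

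**Figure D2:**
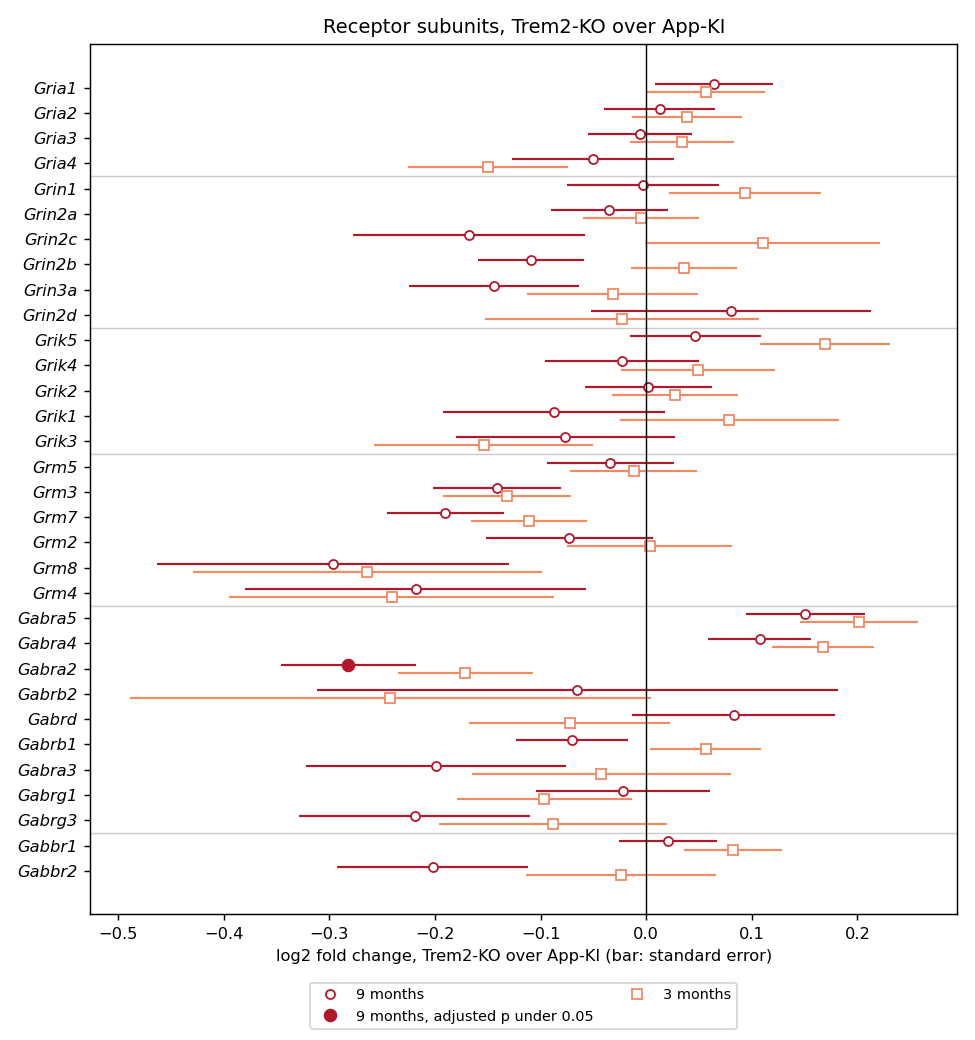
Log2 fold change of each of the 32 tested subunits, Trem2-KO over App-KI, at 9 months and at 3 months, by receptor class; bars are standard errors from the edgeR fit and filled symbols mark an adjusted p under 0.05. Gabra2 at 9 months (-0.28) is the filled point, and all 6 metabotropic receptors lie below 0 at 9 months.

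Gabra2 had 114, 119 and 132 CPM in Trem2-KO hippocampi at 9 months, against 147, 139.8 and 157 CPM in App-KI hippocampi of that age. Every Trem2-KO library lay below every App-KI library. At 3 months it had 141, 124 and 125 CPM in Trem2-KO mice, against 138, 147 and 153 CPM in App-KI mice, and there the highest Trem2-KO library lay above the lowest App-KI library. The group means were 122 ± 9.08 CPM in Trem2-KO mice and 148 ± 8.62 CPM in App-KI mice at 9 months (SD, n = 3 each). The log2 fold change of Gabra2 was -0.28 ± 0.064 (edgeR, adjusted p = 0.0217) at 9 months, -0.17 ± 0.064 (edgeR, adjusted p = 0.285) at 3 months and -0.23 ± 0.045 (edgeR, adjusted p = 0.00558) averaged over both ages. Leaving out any library did not end the averaged call. The call at 9 months was not made without any 1 of Trem2-KO 9-month replicates 1 and 2 and App-KI 9-month replicates 1 and 3 (adjusted p from 0.0748 to 0.147).

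Gabra5 had 250.5, 275 and 276 CPM in Trem2-KO hippocampi at 9 months, against 226, 257 and 239 CPM in App-KI hippocampi. At 3 months it had 322, 314 and 307 CPM in Trem2-KO mice, against 267, 261 and 292 CPM in App-KI mice. At 3 months every Trem2-KO library lay above every App-KI library, while at 9 months the lowest Trem2-KO library lay below the highest App-KI library. For Gabra5 the log2 fold change was 0.18 ± 0.04 (edgeR, adjusted p = 0.0132) averaged over both ages, 0.15 ± 0.056 (edgeR, adjusted p = 0.207) at 9 months and 0.20 ± 0.056 (edgeR, adjusted p = 0.114) at 3 months. The averaged call was not made without App-KI 3-month replicate 2 (adjusted p = 0.0527). In the reference annotation 4.98% of the exon bases of Gabra5 overlap an antisense gene.

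Gabra4 had 195, 202 and 203 CPM in Trem2-KO hippocampi at 9 months, against 177, 190.2 and 191 CPM in App-KI hippocampi. At 3 months it had 229, 213 and 212 CPM in Trem2-KO mice, against 194, 189 and 199 CPM in App-KI mice. Within each age every Trem2-KO library lay above every App-KI library. The averaged and single-age log2 fold changes of Gabra4 were 0.14 ± 0.034 (edgeR, adjusted p = 0.026) averaged over both ages, 0.11 ± 0.049 (edgeR, adjusted p = 0.33) at 9 months and 0.17 ± 0.048 (edgeR, adjusted p = 0.133) at 3 months. Over both ages the call of Gabra4 was not made without any 1 of Trem2-KO 9-month replicate 2, App-KI 9-month replicate 1, Trem2-KO 3-month replicate 1 and App-KI 3-month replicates 1 and 2 (adjusted p from 0.0507 to 0.0806), nor with the 3 libraries low in choroid plexus markers left out together (adjusted p = 0.0829).

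**Figure D3:**
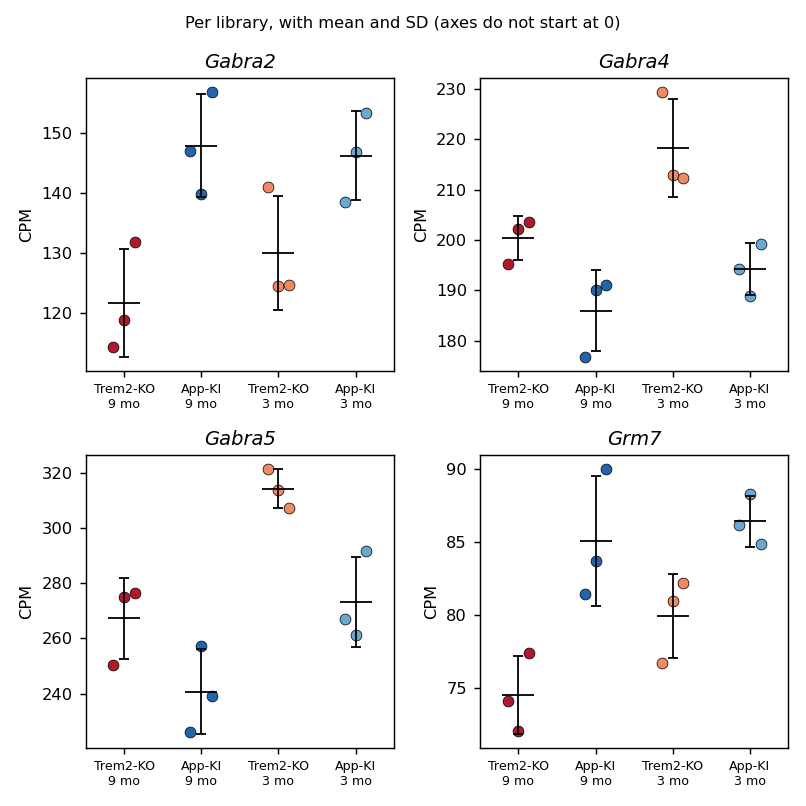
CPM of each library for the subunits called between genotypes, by group, with the group mean and SD (n = 3); the axes do not start at 0. Gabra2 is lower in all 3 Trem2-KO 9-month libraries (114, 119 and 132 CPM) than in the App-KI 9-month libraries (147, 139.8 and 157 CPM), and Gabra4 is higher in the Trem2-KO libraries of each age.

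Gabra2 and Gabra4 lie on chromosome 5 in the cluster Gabrg1, Gabra2, Gabra4 and Gabrb1, with 1 other protein-coding gene between Gabra2 and Gabra4, and they moved in opposite directions. Their neighbours in the cluster were not called: the log2 fold change averaged over both ages was -0.059 ± 0.058 (edgeR, adjusted p = 0.653) for Gabrg1 and -0.0068 ± 0.037 (edgeR, adjusted p = 0.949) for Gabrb1. Gabra5 lies next to Gabrg3 on chromosome 7, whose log2 fold change was -0.15 ± 0.077 (edgeR, adjusted p = 0.3). The sequences just upstream of the annotated start of the 3 called alpha subunits follow, 250 bases each from RefSeq (GRCm38.p6, all 3 genes on the minus strand, written 5′ to 3′ along the gene), since these subunits differ in the direction of their change. Capitals mark a match to the GC box, GGGCGG, on either strand.
Gabra2, chr5:71095850-71096099: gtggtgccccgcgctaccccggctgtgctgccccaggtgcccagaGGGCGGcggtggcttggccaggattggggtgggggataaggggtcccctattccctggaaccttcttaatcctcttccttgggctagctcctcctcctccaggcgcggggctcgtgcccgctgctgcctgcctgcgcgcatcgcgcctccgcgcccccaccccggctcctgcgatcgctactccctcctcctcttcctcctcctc
Gabra4, chr5:71658309-71658558: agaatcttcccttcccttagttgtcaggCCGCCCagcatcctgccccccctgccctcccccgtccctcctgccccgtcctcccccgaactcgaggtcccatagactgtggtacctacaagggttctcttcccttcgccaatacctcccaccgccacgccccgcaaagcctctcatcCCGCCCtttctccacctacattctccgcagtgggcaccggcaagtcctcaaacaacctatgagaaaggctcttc
Gabra5, chr7:57510060-57510309: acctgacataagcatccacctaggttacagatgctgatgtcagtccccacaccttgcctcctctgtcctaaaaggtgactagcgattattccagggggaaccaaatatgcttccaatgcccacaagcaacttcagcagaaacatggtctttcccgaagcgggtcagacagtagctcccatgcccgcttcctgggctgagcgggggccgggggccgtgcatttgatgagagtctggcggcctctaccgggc

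The window of Gabra2 held 1 match to the GC box and 18 CpG dinucleotides, that of Gabra4 held 2 matches and 12 CpG, and that of Gabra5 held 0 matches and 9 CpG, beside a median of 6 CpG over all promoter windows of this length. A GC box was found in 32.7% of all 32817 windows and in 15 of the 33 windows that RefSeq gives for 26 of the subunits. The cyclic AMP response element, TGACGTCA, was in 0 of the 33 subunit windows and in 1.55% of all windows. An E-box, CACGTG, was in 1 of the 33, that of Grin1, and in 6.02% of all. The EGR site, GCGNGGGCG, was in 2 of the 33 and in 4.70% of all, and the TATA box, TATAAA, in 4 of the 33 and in 12.4% of all. All were searched on both strands. The windows of Grm7 overlap and share their GC box, and those of Gabra3 overlap and share their TATA box, so these matches count more than once. A match describes letters in a window and marks no binding site.

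Grm7, a low-affinity receptor of the presynaptic active zone, had 74.1, 72.0 and 77.4 CPM in Trem2-KO hippocampi at 9 months, against 81.4, 83.7 and 90.0 CPM in App-KI hippocampi. At 3 months it had 76.7, 80.9 and 82.2 CPM in Trem2-KO mice, against 86.1, 88.3 and 84.8 CPM in App-KI mice. Within each age every Trem2-KO library lay below every App-KI library. The log2 fold change of Grm7 was -0.15 ± 0.039 (edgeR, adjusted p = 0.0313) averaged over both ages, -0.19 ± 0.055 (edgeR, adjusted p = 0.0842) at 9 months and -0.11 ± 0.055 (edgeR, adjusted p = 0.461) at 3 months. Over both ages the call of Grm7 was not made without any 1 of Trem2-KO 9-month replicate 2, App-KI 9-month replicate 3, Trem2-KO 3-month replicates 1, 2 and 3 and App-KI 3-month replicates 1 and 2 (adjusted p from 0.0514 to 0.0963). All 6 tested metabotropic receptors had averaged log2 fold changes below 0, from -0.28 for Grm8 to -0.023 for Grm5, with only Grm7 called. Grm3, a glial and presynaptic receptor of the same G-protein class as Grm2, had a log2 fold change of -0.14 ± 0.043 (edgeR, adjusted p = 0.0792).

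The ionotropic glutamate subunits showed no call between genotypes. Averaged log2 fold changes lay between -0.10 and 0.06 for the 4 AMPA subunits, between -0.088 and 0.045 for the 6 NMDA subunits and between -0.12 and 0.11 for the 5 kainate subunits. Grik5 had 109.6, 124 and 122 CPM in Trem2-KO mice at 3 months, against 101, 108 and 108 CPM in App-KI mice. Every Trem2-KO library lay above every App-KI library at that age. Its log2 fold change was 0.17 ± 0.061 (edgeR, adjusted p = 0.269) at 3 months. At 9 months Grik5 had 100.5, 115 and 113 CPM in Trem2-KO mice, against 109, 108 and 101 CPM in App-KI mice, which overlap, and a log2 fold change of 0.047 ± 0.062 (edgeR, adjusted p = 0.799). For Gabbr1 and Gabbr2 the averaged log2 fold changes were 0.051 ± 0.033 (edgeR, adjusted p = 0.44) and -0.11 ± 0.064 (edgeR, adjusted p = 0.389).

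Among 70 tested genes of auxiliary subunits, scaffolds, transporters and enzymes of both transmitters, 4 were called between genotypes over both ages, all lower in Trem2-KO hippocampi. Glul, the glutamine synthetase of astrocytes, had a log2 fold change of -0.24 ± 0.041 (edgeR, adjusted p = 0.00131). Dlg1, the scaffold SAP97, had -0.23 ± 0.04 (edgeR, adjusted p = 0.00169), and Neto2, an auxiliary subunit of kainate receptors, had -0.22 ± 0.053 (edgeR, adjusted p = 0.0185). Homer1, which links group I metabotropic receptors to the scaffold, had -0.21 ± 0.049 (edgeR, adjusted p = 0.0185). At 9 months 3 of the 70 were called lower, Neto2 (-0.32), Dlg1 (-0.22) and Homer2 (-0.23), against 1.39% of all tested genes. At 3 months 1 was called lower, Glul (-0.27), against 0.423% of all tested genes. The 4 of 70 over both ages compare with 4.14% of all tested genes, 1.60% higher and 2.54% lower. None of 17 auxiliary genes of AMPA receptors, 12 partner genes of GABA receptors or 7 genes of GABA synthesis and transport was called over both ages. The smallest p in these lists, here with their log2 fold changes, belonged to Cacng5 (0.55) and Cnih3 (0.086) for AMPA auxiliaries and to Kctd12 (-0.13) and Lhfpl4 (0.11) for GABA receptor partners. In the last list Slc6a11, a GABA transporter, had a log2 fold change of -0.13.

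Markers of cell types and of tissue parts also differed between genotypes. In whole tissue, fewer cells of a type and less RNA per cell cannot be told apart. The mean log2 CPM of 5 cortical markers was 4.25 to 4.34 in Trem2-KO 9-month libraries, 4.32 to 4.46 in App-KI 9-month, 4.32 to 4.41 in Trem2-KO 3-month and 4.43 to 4.56 in App-KI 3-month libraries, with the genotypes apart at 3 months and overlapping at 9. That of 5 CA1 markers was 6.11 to 6.23, 6.33 to 6.40, 6.48 to 6.54 and 6.54 to 6.59 in the same order, and that of 5 dentate markers was 5.06 to 5.27, 4.81 to 5.09, 5.12 to 5.15 and 4.80 to 5.20. Of the CA1 markers 1 of 5 was called lower in Trem2-KO mice over both ages, of the cortical markers 1 of 5, and of the dentate markers 0 of 5 (2 at an unadjusted p under 0.05). Of 7 microglial markers 6 were called lower in Trem2-KO mice over both ages, of 6 oligodendrocyte precursor markers 2 and of 6 astrocyte markers 1. None of the cortical, CA1, dentate or fibroblast markers was at 0 in any library. The mean log2 CPM of 6 meningeal fibroblast markers was 4.28 to 4.64 in Trem2-KO 9-month libraries, above the 3.27 to 3.64 of App-KI 9-month, the 3.35 to 3.79 of Trem2-KO 3-month and the 3.50 to 3.90 of App-KI 3-month libraries. With that score as a covariate, 0 of the 4 averaged calls were made, with log2 fold changes of -0.20 for Gabra2, 0.20 for Gabra5, 0.13 for Gabra4 and -0.11 for Grm7 (adjusted p = 0.256, 0.175, 0.338 and 0.507 in that order). Over all 19152 genes tested, the calls with that covariate came to 73, against 793 without it. The call of Gabra2 at 9 months was not made with it either, where 6 genes were called in place of 398 (-0.23, adjusted p = 0.819). The part of these markers in the changes was not tested.

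With age, 6 subunits changed over both genotypes. Grin2c rose at 9 months, and Grin1, Grin2a, Grm2, Grm4 and Gabra5 fell. These 6 of 32 (18.8%) compare with 17.0% of all tested genes, 9.26% higher and 7.70% lower, so the share is near the background. Below 0 lay 26 of the 32 log2 fold changes, with a median of -0.063 beside 0.0016 over all tested genes. All 4 AMPA and all 6 metabotropic values were among those below 0.

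Within App-KI mice 1 of 32 subunits was called with age, Grin2c, higher, against 6.66% of all tested genes (3.95% higher and 2.71% lower). Within Trem2-KO mice 2 of 32 were called, Gabra5 and Grm2, both lower, against 8.70% of all tested genes (5.68% higher and 3.02% lower). The age comparisons share no libraries, and 25 of 32 subunits (78.1%) had the same sign in both, 3 higher and 22 lower at 9 months, beside 68.6% of all tested genes.

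**Figure D4:**
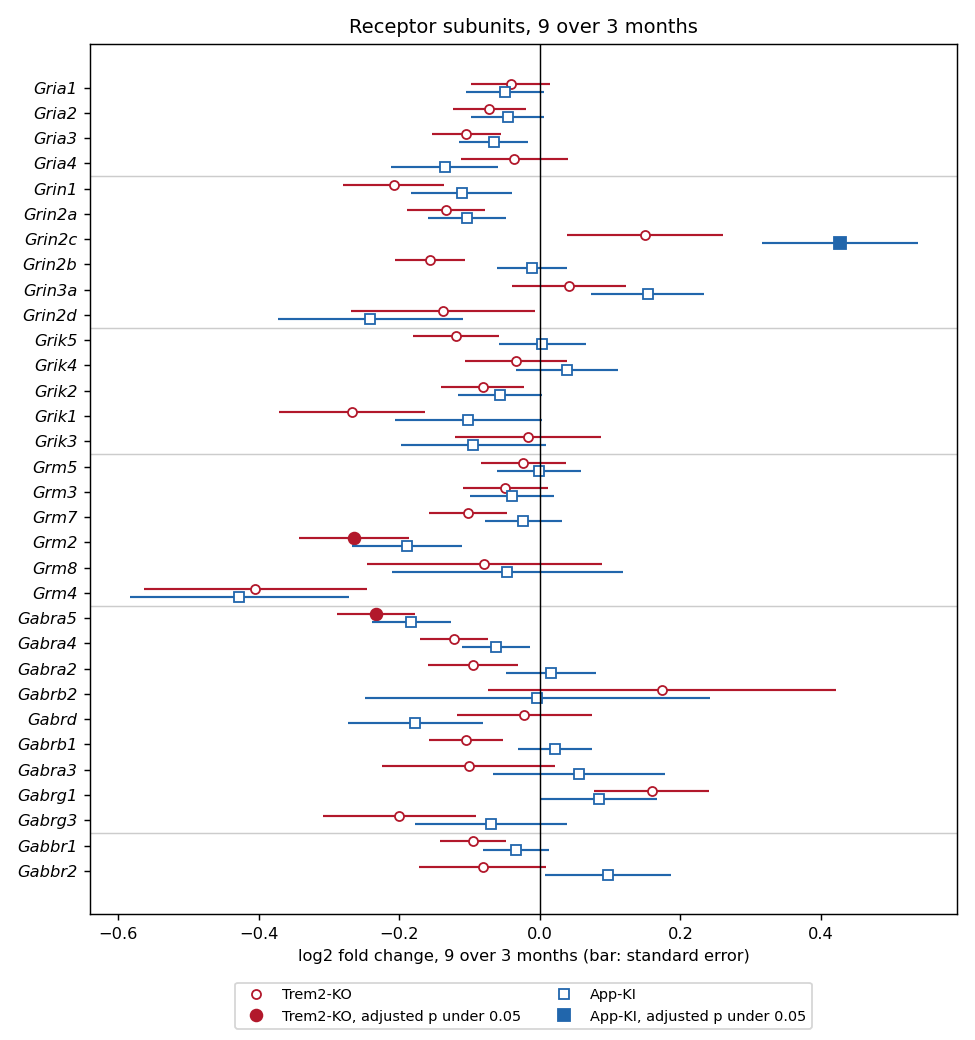
Log2 fold change of each of the 32 tested subunits, 9 over 3 months, in Trem2-KO and in App-KI mice, by receptor class; bars are standard errors from the edgeR fit and filled symbols mark an adjusted p under 0.05. Grin2c in App-KI mice (0.43) is filled above 0, and Grm2 (-0.27) and Gabra5 (-0.23) in Trem2-KO mice are filled below 0.

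Of the NMDA subunits, Grin2c, whose channels are weakly blocked by magnesium and which in the hippocampus is known from interneurons and astrocytes, had 40.3, 37.8 and 35.9 CPM at 9 months and 23.1, 29.9 and 32.1 CPM at 3 months in App-KI mice. In Trem2-KO mice it had 31.9, 35.9 and 33.8 CPM at 9 months and 26.2, 33.9 and 31.2 CPM at 3 months. The ages do not overlap in App-KI mice and overlap in Trem2-KO mice. Its log2 fold change, 9 over 3 months, was 0.43 ± 0.11 (edgeR, adjusted p = 0.0269) in App-KI mice, 0.15 ± 0.11 (edgeR, adjusted p = 0.463) in Trem2-KO mice and 0.29 ± 0.078 (edgeR, adjusted p = 0.0171) averaged over both. The averaged call was not made without App-KI 9-month replicate 1 (adjusted p = 0.0587), and the call in App-KI mice was not made without any 1 of App-KI 9-month replicates 1, 2 and 3 and App-KI 3-month replicate 1 (adjusted p from 0.0517 to 0.139). With the 3 libraries low in choroid plexus markers left out together, neither was made (0.22 with adjusted p = 0.0513 averaged, 0.30 with adjusted p = 0.168 in App-KI mice). Beside it, 6 astrocyte markers averaged 8.88 to 9.02 log2 CPM in Trem2-KO 9-month libraries, 9.06 to 9.14 in App-KI 9-month, 8.52 to 8.57 in Trem2-KO 3-month and 8.57 to 8.67 in App-KI 3-month libraries. This mean was higher at 9 months in every library. Gfap rose most, with 464 to 525 CPM at 3 months and 1469 to 2045 CPM at 9 months. Aqp4 and Aldoc also lay higher in every 9-month library, while the ages overlap for Gja1, Aldh1l1 and Slc1a3. The part of these markers in the rise of Grin2c was not tested.

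Grin1 had 217, 249 and 240.3 CPM at 9 months and 239, 286 and 291 CPM at 3 months in Trem2-KO mice, and 229, 254 and 225 CPM at 9 months and 251, 249 and 265 CPM at 3 months in App-KI mice. The ages overlap in each genotype. Its log2 fold change averaged over genotypes was -0.16 ± 0.051 (edgeR, adjusted p = 0.0407), and the call was not made without any 1 of Trem2-KO 9-month replicate 1, App-KI 9-month replicates 1 and 3, Trem2-KO 3-month replicates 2 and 3 and App-KI 3-month replicates 1, 2 and 3 (adjusted p from 0.0566 to 0.107). Antisense to Grin1 the annotation has a gene that shares 13.5% of its exon bases. Grin2a, which with Grin2b binds glutamate in most hippocampal NMDA receptors, had 172, 179.9 and 175 CPM at 9 months and 199.8, 193 and 186 CPM at 3 months in Trem2-KO mice. In App-KI mice Grin2a had 164, 192 and 184 CPM at 9 months and 192, 187 and 202 CPM at 3 months, and there the ages overlap, while in Trem2-KO mice they do not. The averaged log2 fold change of Grin2a was -0.12 ± 0.039 (edgeR, adjusted p = 0.0423). The call was not made without any 1 of Trem2-KO 9-month replicates 1 and 2, App-KI 9-month replicate 1, Trem2-KO 3-month replicates 1 and 2 and App-KI 3-month replicates 1 and 3 (adjusted p from 0.051 to 0.119).

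Grin2b had 139, 127 and 132 CPM at 9 months and 146, 147 and 149 CPM at 3 months in Trem2-KO mice, with every 9-month library below every 3-month library. In App-KI mice it had 143, 145 and 140.2 CPM at 9 months and 146, 135 and 151 CPM at 3 months, which overlap. The log2 fold change was -0.16 ± 0.05 (edgeR, adjusted p = 0.0555) in Trem2-KO mice and -0.012 ± 0.05 (edgeR, adjusted p = 0.949) in App-KI mice. Grin3a and Grin2d had averaged log2 fold changes of 0.10 ± 0.057 (edgeR, adjusted p = 0.281) and -0.19 ± 0.093 (edgeR, adjusted p = 0.183).

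Grm2, a presynaptic autoreceptor of glutamate terminals that is abundant in dentate granule cells, had 59.0, 57.9 and 61.7 CPM at 9 months and 66.5, 71.2 and 76.7 CPM at 3 months in Trem2-KO mice. Every 9-month library lay below every 3-month library. In App-KI mice it had 58.2, 72.0 and 57.5 CPM at 9 months and 71.5, 67.1 and 75.4 CPM at 3 months, where 1 of the 9-month libraries lay within the 3-month range. For Grm2 the log2 fold change with age was -0.27 ± 0.078 (edgeR, adjusted p = 0.041) in Trem2-KO mice, -0.19 ± 0.078 (edgeR, adjusted p = 0.197) in App-KI mice and -0.23 ± 0.055 (edgeR, adjusted p = 0.00719) averaged over both. The averaged call was made whichever library was left out, and that in Trem2-KO mice was not made without any 1 of Trem2-KO 9-month replicates 1 and 2 and Trem2-KO 3-month replicates 2 and 3 (adjusted p from 0.0938 to 0.197). An antisense gene shares 9.6% of the exon bases of Grm2 in the annotation.

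Grm4, a presynaptic receptor that is more abundant in cerebellum than in hippocampus, had the lowest CPM of the tested metabotropic receptors. It had 5.38, 4.70 and 7.16 CPM at 9 months and 6.58, 8.48 and 7.57 CPM at 3 months in Trem2-KO mice, which overlap. In App-KI mice it had 5.85, 6.60 and 7.61 CPM at 9 months and 9.82, 8.73 and 8.29 CPM at 3 months, with every 9-month library below every 3-month library. The log2 fold change of Grm4 was -0.42 ± 0.11 (edgeR, adjusted p = 0.0126) averaged over both genotypes, -0.40 ± 0.16 (edgeR, adjusted p = 0.122) in Trem2-KO mice and -0.43 ± 0.16 (edgeR, adjusted p = 0.121) in App-KI mice. No left-out library ended the averaged call of Grm4. Grm3, Grm5, Grm7 and Grm8 had averaged values of -0.044, -0.012, -0.063 and -0.063, none called.

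**Figure D5:**
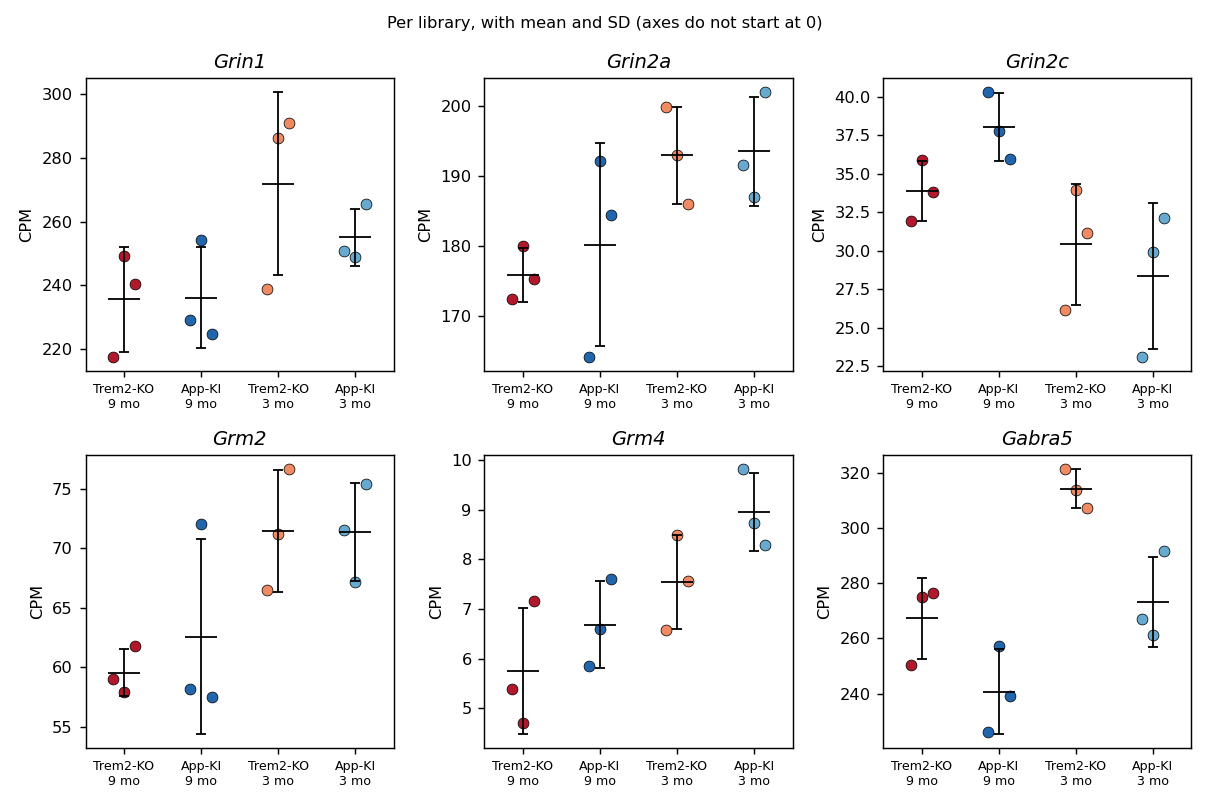
CPM of each library for the subunits called between ages, by group, with the group mean and SD (n = 3); the axes do not start at 0. Gabra5 is lower at 9 months than at 3 months within each genotype, and Grin2c is higher in all 3 App-KI 9-month libraries (40.3, 37.8 and 35.9 CPM) than in the App-KI 3-month libraries (23.1, 29.9 and 32.1 CPM).

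Gabra5 fell with age in the values already given: within each genotype every 9-month library lay below every 3-month library. The group means were 267 ± 14.6 CPM at 9 months and 314 ± 7.08 CPM at 3 months in Trem2-KO mice, and 241 ± 15.6 CPM at 9 months and 273 ± 16.2 CPM at 3 months in App-KI mice (SD, n = 3 each). Its log2 fold change was -0.23 ± 0.056 (edgeR, adjusted p = 0.0122) in Trem2-KO mice, -0.18 ± 0.056 (edgeR, adjusted p = 0.0567) in App-KI mice and -0.21 ± 0.04 (edgeR, adjusted p = 0.00093) averaged over both. The averaged call was made whichever library was left out, and that in Trem2-KO mice was not made without Trem2-KO 9-month replicate 1 (adjusted p = 0.054). The value in App-KI mice passed the threshold with DESeq2 (adjusted p = 0.0483) and without the filter on low counts (adjusted p = 0.0145). Gabra5 was thus called in both contrasts, higher without Trem2 and lower at 9 months, so that the Trem2-KO 3-month libraries held its highest values and the App-KI 9-month group its lowest mean.

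The other GABA-A subunits were not called with age. Averaged log2 fold changes were -0.093 ± 0.034 (edgeR, adjusted p = 0.0712) for Gabra4 and -0.04 ± 0.045 (edgeR, adjusted p = 0.619) for Gabra2. Gabrg1, a gamma subunit, had 0.12 ± 0.058 (edgeR, adjusted p = 0.174) and Gabrd, the delta subunit, -0.10 ± 0.068 (edgeR, adjusted p = 0.365). Gabra3, Gabrb1, Gabrb2 and Gabrg3 had averaged values of -0.023, -0.042, 0.085 and -0.13. Gabbr1 had 505, 530.2 and 542 CPM at 9 months and 551, 559.6 and 575 CPM at 3 months in Trem2-KO mice, with the ages apart. In App-KI mice it had 523, 525 and 507 CPM at 9 months and 517, 528 and 548 CPM at 3 months, with the ages overlapping. Its averaged log2 fold change was -0.065 ± 0.033 (edgeR, adjusted p = 0.203), and that of Gabbr2 was 0.0079 ± 0.064 (edgeR, adjusted p = 0.957).

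The AMPA subunits all lay slightly below 0 with age, from -0.086 to -0.046, and none was called. Gria3 had the smallest p of the 4, with a log2 fold change of -0.085 ± 0.035 (edgeR, adjusted p = 0.104). Of the kainate subunits, Grik1 had -0.18 ± 0.074 (edgeR, adjusted p = 0.0969), and Grik2, Grik3, Grik4 and Grik5 had -0.069, -0.056, 0.0021 and -0.058.

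Of the 70 genes around the receptors, 16 were called with age over both genotypes, 2 higher and 14 lower at 9 months, against the 17.0% of all tested genes, 9.26% higher and 7.70% lower. Of 12 partner genes of GABA receptors 5 fell. Gphn, which encodes the gephyrin scaffold of inhibitory synapses, had a log2 fold change of -0.20 ± 0.042 (edgeR, adjusted p = 0.00185), and Gabarapl2 had -0.18 ± 0.035 (edgeR, adjusted p = 0.00148). Kctd16, an auxiliary subunit of GABA-B receptors, had -0.42 ± 0.10 (edgeR, adjusted p = 0.00693), and Gabarap and Lhfpl4 had -0.25 and -0.12. Of 17 auxiliary genes of AMPA receptors, Nptx2, a secreted pentraxin that clusters AMPA receptors, had a log2 fold change of -0.29 ± 0.069 (edgeR, adjusted p = 0.00515), Cnih2, which slows their closing, had -0.19 ± 0.046 (edgeR, adjusted p = 0.00578), Cacng3 and Shisa8 also fell (-0.16 and -0.81), and Shisa6 rose (0.18). The level of Shisa8 was low, with 0.525 to 1.10 CPM at 9 months and 0.732 to 2.36 CPM at 3 months, and its ages overlap. Of 20 scaffold genes of glutamate synapses Homer2 (-0.18), Dlg3 (-0.10) and Dlgap1 (-0.10) fell. Of 10 genes of glutamate transport and metabolism, Slc1a3, the transporter GLAST of astrocytes, rose (0.19), and the vesicular transporter Slc17a6 (-0.58) and the neuronal transporter Slc1a1 (-0.11) fell. None of 7 genes of GABA synthesis and transport was called, where Gad2 (-0.09) and Slc6a11 (-0.053) had the smallest p, nor was Neto1 (-0.039) or Neto2 (-0.14).

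The means of the excitatory, general neuronal, inhibitory and CA1 marker lists moved with age in the direction of most subunits. Those of the dentate and CA3 lists overlapped between the ages in each genotype. The CA3 mean log2 CPM was 4.91 to 5.24 at 9 months and 5.03 to 5.14 at 3 months in Trem2-KO libraries. In App-KI libraries it was 4.75 to 4.99 at 9 months and 4.86 to 5.21 at 3 months. The mean log2 CPM of 5 excitatory markers was 7.04 to 7.19 in Trem2-KO 9-month libraries, 7.19 to 7.29 in App-KI 9-month, 7.48 to 7.51 in Trem2-KO 3-month and 7.51 to 7.56 in App-KI 3-month libraries, and 4 of 5 were called lower at 9 months over both genotypes. That of 6 general neuronal markers was 9.14 to 9.24, 9.24 to 9.29, 9.33 to 9.37 and 9.32 to 9.38 in the same order, with 2 of 6 called lower. Of 8 inhibitory markers 4 were called lower. Of 7 microglial markers all 7 were called higher, with mean log2 CPM of 6.25 to 6.38, 6.94 to 7.02, 5.70 to 5.77 and 5.80 to 5.87. In these list means every 9-month library lay below every 3-month library for the excitatory and general neuronal markers, and above for the microglial markers. Single markers can overlap between the ages, among them Slc17a7, Snap25, Syt1, Cx3cr1 and P2ry12. With the meningeal fibroblast score as a covariate 1 of the 6 averaged age calls was made, that of Grin2c, and neither call in Trem2-KO mice was made. Over all 19152 genes tested, 1136 averaged age calls were then made in place of 3249, and 31 in Trem2-KO mice in place of 1667. The log2 fold changes in Trem2-KO mice were then -0.17 for Gabra5 and -0.26 for Grm2 (adjusted p = 0.703 and 0.687 in that order). The averaged log2 fold changes were then 0.51 for Grin2c (adjusted p = 0.00461; without the covariate 0.29), -0.18 for Gabra5, -0.22 for Grm2, -0.39 for Grm4, -0.11 for Grin2a and -0.049 for Grin1. The part of these markers in the changes was not tested.

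The difference between the genotypes' age changes, and with it the difference between the ages' genotype changes, was tested as an interaction. edgeR called 0 of 32 subunits, with 0 at an unadjusted p under 0.05, and DESeq2 and limma-voom called 0, against 0.266% of all tested genes (0.0574% higher and 0.209% lower). The smallest p belonged to Grin2b, Grin2c and Gabrb1, with interaction log2 values of -0.14 ± 0.071 (edgeR, adjusted p = 0.851), -0.28 ± 0.16 (edgeR, adjusted p = 0.912) and -0.13 ± 0.074 (edgeR, adjusted p = 0.92). Gabrb1 had 167, 157 and 173 CPM in Trem2-KO mice and 173, 180.3 and 169 CPM in App-KI mice at 9 months, and 182, 177 and 176 CPM in Trem2-KO mice and 165, 166 and 184 CPM in App-KI mice at 3 months. The genotypes overlap at each age. Of the 70 genes around the receptors 0 were called by edgeR, with 2 at an unadjusted p under 0.05. Standard errors of the subunits' interaction values ran from 0.066 to 0.35, so a call within 1 age or genotype is not shown to differ from the other, and Gabra2 at 9 months and Grin2c in App-KI mice are examples, with interaction values of -0.11 ± 0.09 (edgeR, adjusted p = 0.988) for Gabra2 and -0.28 for Grin2c.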

How the data were processed

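The members and gene lists were chosen with earlier results of these data known. Hippocampal RNA was made into libraries with a SMART-Seq mRNA kit, per the labels' protocols. The authors deposited integer read counts per gene with no normalisation. Per the submitters' processing notes, GRCm39 was the build and the tools included DESeq2 1.36.0, R 4.2.0, featureCounts 2.0.3 and STAR 2.7.10a, with no roles or settings. Strand setting, annotation release and handling of multiply mapped reads were not given in the sources used, so reads of a gene and an antisense partner cannot be told apart. Symbols (52073 of 56980 rows) and transcript lengths came from GENCODE M21 on GRCm38, and promoter windows from RefSeq.

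Genes passed edgeR's filterByExpr (minimum count 10, total 15). Counts were tested with edgeR 4.0.16 in R 4.3.3 (robust quasi-likelihood F-test, trimmed mean of M-values, 1 term per group, all 12 libraries, 8 residual degrees of freedom), with Benjamini-Hochberg adjustment over all tested genes in each of 7 comparisons and an adjusted p under 0.05 as a call. Standard errors came from the log2 fold change and its F value. The script was tested on simulated data. DESeq2 1.42.0 and limma-voom 3.58.1 were alternatives. Values in every library are printed for called subunits, the 3 with the smallest p in each comparison and the most abundant of each class; Gabrb2 is given by its range, and some genes of the lists are not reported here. The labels give no source beyond the mouse identifier, so p-values measure the spread between these mice.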

Additional observations from a re-analysis of the deposited data

How the results depend on the processing

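No paired analysis was possible because the labels give mouse identifiers and no replicate numbers shared by the groups. The number of subunits called with each library left out in turn was 0 in every case for Trem2-KO against App-KI at 3 months and for the interaction, ran from 0 to 1 at 9 months and from 1 to 4 averaged over both ages, and ran from 0 to 2 for 9 against 3 months in App-KI mice, 1 to 3 in Trem2-KO mice and 4 to 7 averaged over both genotypes. In the same fits 19381 to 19686 genes were tested, and the calls over all of them also varied. Between genotypes they ran from 26 to 154 at 3 months, 175 to 556 at 9 months and 458 to 930 averaged over both ages. With age they ran from 788 to 1523 in App-KI mice, 769 to 1920 in Trem2-KO mice and 2495 to 3497 averaged over both genotypes. For the interaction they ran from 29 to 76. Without the filter on low counts, 1 subunit was called between genotypes at 3 months (Gabra5, higher), 2 at 9 months and 2 with age in App-KI mice, among 347, 831 and 1657 called of 38139 genes in that order. The DESeq2 test called 2 with age in App-KI mice and 4 in Trem2-KO mice, among 1358 and 1897 of 19152 genes. With the choroid plexus score as a covariate 2 were called with age in App-KI mice, among 1400 genes. Leaving out together the 3 libraries low in choroid plexus markers, an alternative chosen after seeing the data, gave 2 there among 826 of 19477 genes: Gabra5 at -0.25 and Grm2 at -0.31 (adjusted p = 0.0278 and 0.0313 in that order). Grin2c was not called there (adjusted p = 0.168). With the meningeal fibroblast score as a covariate, the subunits called came to 0 between genotypes at 9 months, 0 averaged over both ages, 0 with age in Trem2-KO mice and 1 averaged over both genotypes, and the genes called of 19152 to 6, 73, 31 and 1136 in that order. That score was higher in every Trem2-KO 9-month library than in any other, so it and that group cannot be told apart. The interaction value of Grin2c changed sign with it, to 0.34 (adjusted p = 0.974). Over all alternatives, 443 values of the named subunits kept direction and side of the threshold, 57 lost the call, 11 gained it and 1 changed sign; the cause was not tested. Fits with the compared groups alone were run for the 4 comparisons of 2 groups. The 70 genes around the receptors were tested in the main design alone. The filter on low counts left 3 subunits untested.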

Other observations

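The ratio of Gabra5 to Gabra2 within a library, chosen after the values were seen and given without a test, was 2.19, 2.32 and 2.10 in Trem2-KO mice at 9 months, against 1.54, 1.84 and 1.52 in App-KI mice, and 2.28, 2.52 and 2.47 in Trem2-KO mice at 3 months, against 1.93, 1.78 and 1.90 in App-KI mice. Within each age every Trem2-KO library lay above every App-KI library. The ratio of Gabra4 to Gabra2 averaged 1.65 ± 0.0934 in Trem2-KO mice and 1.26 ± 0.0873 in App-KI mice at 9 months, and 1.68 ± 0.0461 in Trem2-KO mice and 1.33 ± 0.0640 in App-KI mice at 3 months (SD, n = 3 each). Both ratios set a subunit called higher over a subunit called lower in the same libraries. Their gaps between genotypes follow from those calls, and neither ratio was tested.

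The ratio of Grin2a to Grin2b averaged 1.33 ± 0.0867 in Trem2-KO mice and 1.26 ± 0.0991 in App-KI mice at 9 months, and 1.31 ± 0.0603 in Trem2-KO mice and 1.34 ± 0.0343 in App-KI mice at 3 months. Gria1 to Gria2 averaged 0.776 ± 0.0452 in Trem2-KO mice and 0.748 ± 0.0234 in App-KI mice at 9 months, and 0.760 ± 0.0252 in Trem2-KO mice and 0.750 ± 0.0235 in App-KI mice at 3 months. Gabbr1 to Gabbr2 averaged 2.15 ± 0.238 in Trem2-KO mice and 1.83 ± 0.116 in App-KI mice at 9 months, and 2.15 ± 0.128 in Trem2-KO mice and 2.01 ± 0.193 in App-KI mice at 3 months. In these 3 ratios of CPM, which are not per length, the genotypes overlap at each age.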
